A study of Mus musculus with 103 samples.

Results

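The Nugen Ovation kit was run on a single RNA at 5 inputs that lay 10-fold apart, and 10 of the 103 arrays of the series were made this way. The arrays were picked by their labels, which give 2 arrays each at 50 pg, 500 pg, 5 ng, 50 ng and 500 ng. The RNA was the mouse universal total RNA sold by Stratagene, a commercial reference pool. All 10 were hybridised as biotin-labelled cDNA to an Affymetrix mouse array with 22690 probe sets, so input was the factor that varied. The series also labelled the pool by the Affymetrix two-cycle and Arcturus RiboAmp HS kits at the same inputs (10 arrays each) and by the Affymetrix one-cycle protocol (4 arrays), which makes cRNA, and these serve for comparison below. The trend of each probe set was its slope, the change of log2 signal per 10-fold more RNA, fitted over all 5 inputs and again without 50 pg. A positive slope means a higher signal with more RNA. No label says that the 2 arrays of an input came from separate preparations, so the p-values below cover only how far these arrays differ from each other, a spread that may be technical.

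In the Ovation method first-strand cDNA is made from the poly(A) tail of an mRNA with a primer that is part DNA and part RNA, and the RNA part is then removed and replaced again and again so that a polymerase copies the same template many times. Every copy is read from the original cDNA and not from earlier copies, which makes the amplification linear. The array reads each transcript through short probes near its 3′ end, and control probe sets placed at the 5′ end, middle and 3′ end of Actb and Gapdh show how much of a transcript the labelled product covers. Hybridisation controls are bacterial and phage transcripts that are labelled in advance and added in a fixed amount to the hybridisation mix, so they do not pass through the amplification.

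The arrays at 50 and 500 pg stood apart from those at 5 ng and above. Pearson's r of log2 signal between the 2 arrays of an input was taken over all 22626 probe sets that are not controls. It was 0.397 at 50 pg, 0.775 at 500 pg, 0.962 at 5 ng, 0.980 at 50 ng and 0.976 at 500 ng. The next measures used the 13843 probe sets tested over 5 inputs. The share whose 2 arrays lay more than 2-fold apart was 68.3% at 50 pg, 50.4% at 500 pg, 8.48% at 5 ng, 2.12% at 50 ng and 2.65% at 500 ng. A single spread is shared by all inputs in each fit, although the median SD of log2 signal was 1.18 at 50 pg and 0.15 at 500 ng. The first 50 pg array also differed in kind from the others, since 64 probe sets had a signal below 100 there, against 3423 on the second 50 pg array and 4524 to 6882 on the other 8. Results are therefore given with and without 50 pg, and also over 5, 50 and 500 ng alone (6 arrays), a fit that was added after the data were seen.

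The signal of the hybridisation controls averaged 1469000 and 689400 on the 50 pg arrays, 112800 and 183700 at 500 pg, 20680 and 44000 at 5 ng, 21580 and 31200 at 50 ng, and 30770 and 36790 at 500 ng. Both 50 pg arrays were above all others, both 500 pg arrays came next, and the 3 larger inputs overlapped. Taken per input, the controls were 29.9-fold above 500 ng at 50 pg, 4.28-fold at 500 pg, 0.897-fold at 5 ng and 0.771-fold at 50 ng. Their log signal fell with log10 input over the 10 arrays (Pearson's r = -0.846, adjusted p = 0.0069; Spearman's rho = -0.763, adjusted p = 0.0415; permutation test, two-sided, 10 measures), and without the 50 pg arrays r was -0.689 (adjusted p = 0.0868). Because each array was scaled to a common mean, a signal is a share of its array, and probe sets that go up or down with input have to be read beside these controls.

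The 5′ control probe sets of both genes were dim on some arrays of the smaller inputs. Gapdh 5′ read 3570 and 109 at 50 pg and 379 and 588 at 500 pg, against 17900 to 33600 at larger inputs, and Actb 5′ read 1280 and 108 at 50 pg and 97.7 and 306 at 500 pg, against 1390 to 7430. On the second 50 pg and both 500 pg arrays 3423 to 6882 probe sets had signals below 100, so the largest ratios below have an uncertain denominator and show only that the 5′ signal was low. The ratio of 3′ to 5′ signal of Gapdh was 7.72 and 2410 at 50 pg, 106 and 97.0 at 500 pg, 3.42 and 3.69 at 5 ng, 2.18 and 2.61 at 50 ng, and 4.19 and 5.48 at 500 ng. For Actb it was 8.09 and 292 at 50 pg, 412 and 25.6 at 500 pg, 5.17 and 5.64 at 5 ng, 6.90 and 6.50 at 50 ng, and 19.3 and 22.5 at 500 ng. In Gapdh and in Actb both 500 pg arrays lay above all 6 arrays of larger inputs. The first 50 pg array lay above them in Gapdh but within their range in Actb. The 3′ probe set of dap, a bacterial transcript used as a poly(A) control, read 154 and 242 at 50 pg and 324 and 247 at 500 pg, but 11680 and 11310 at 5 ng, 12050 and 12970 at 50 ng, and 11340 and 12060 at 500 ng. The 3′ probe sets of other such controls followed dap only in part. At 500 pg thr also lay below all arrays of larger inputs, while phe lay above them. For phe they read 1790 and 121 at 50 pg and 5280 and 7030 at 500 pg, against 2040 to 3160 on the 6 arrays of larger inputs. For lys they read 4180 and 899 at 50 pg and 293 and 381 at 500 pg, against 371 to 1090 at larger inputs, and for thr 1610 and 1710 at 50 pg and 273 and 55.7 at 500 pg, against 947 to 2950. The labels do not say at which step, or to which samples, such controls were added. The two-cycle arrays had dap signals of 11030 to 14390 at 500 pg and above, and the RiboAmp HS arrays 13580 to 22490. At 50 pg they had 14100 and 411.7 with two-cycle and 6703 and 1665 with RiboAmp HS, so low dap at 50 pg was not particular to Ovation.

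**Figure D1:**
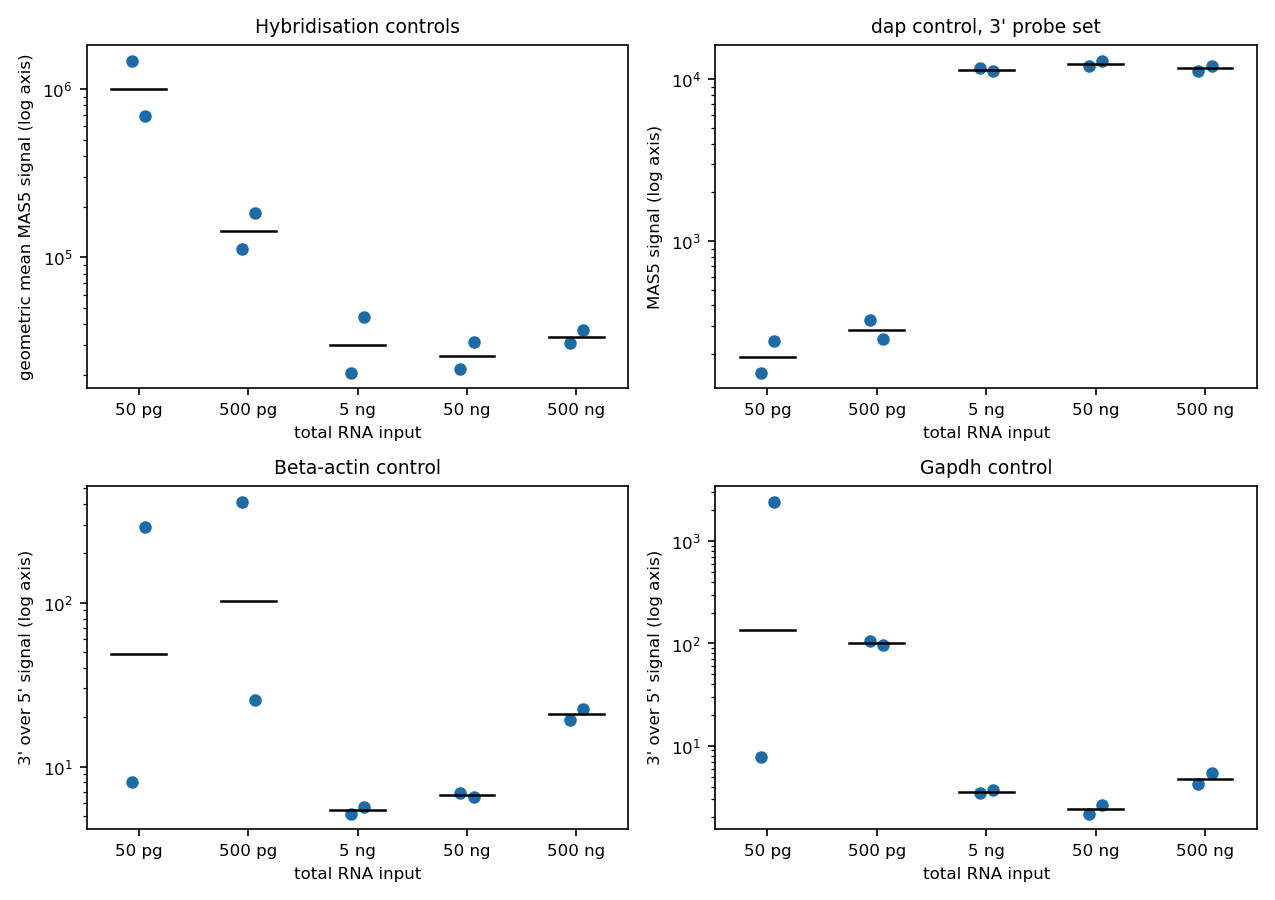
Signal of the hybridisation controls, of the dap 3′ probe set, and the 3′ to 5′ ratios of Actb and Gapdh on the 10 Ovation arrays by input, on log axes (points are arrays, bars are geometric means of 2 arrays). The hybridisation controls and the Gapdh ratio are high at 50 and 500 pg on at least 1 array, and dap reads at most 324 at both inputs.

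The profile moved away from that of the one-cycle protocol as input fell. Pearson's r of log2 signal with the mean of the 4 one-cycle arrays was 0.320 and 0.444 at 50 pg, 0.632 and 0.578 at 500 pg, 0.822 and 0.814 at 5 ng, 0.849 and 0.846 at 50 ng, and 0.835 and 0.827 at 500 ng. The values at 5, 50 and 500 ng lay between 0.814 and 0.849, and those of each smaller input lay below them. Across the 10 arrays this r went up with log10 input (Pearson's r = 0.881, adjusted p = 0.003; Spearman's rho = 0.886, adjusted p = 0.0169; permutation test, two-sided), also without 50 pg (r = 0.792, adjusted p = 0.0358) and without 500 ng (r = 0.945, adjusted p = 0.00765). The middle probe set of 18S ribosomal RNA, which carries no poly(A) tail, read 67410 and 15360 at 50 pg, 66370 and 45790 at 500 pg, 38960 and 37970 at 5 ng, 30580 and 28250 at 50 ng, and 7449 and 6594 at 500 ng. On this probe set both 500 ng arrays were lowest, and from 500 pg up no 2 inputs overlapped. Its correlation with log10 input passed without the 50 pg arrays (r = -0.915, adjusted p = 0.0042) and not with them (r = -0.663, adjusted p = 0.0565). The other 18S probe sets were dimmer and less ordered. The 3′ one overlapped between 500 pg (5100 and 2190) and 5 ng (4170 and 2160). The 5′ one read 48.5 and 124 at 500 pg, 1510 and 762 at 5 ng, 259 and 160 at 50 ng, and 105 and 278 at 500 ng.

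A large part of the transcriptome followed input. Over all 5 inputs 3219 of 13843 probe sets tested (23.3%) were called by limma, which required at least 2-fold over the range fitted and p under 0.05 after Benjamini-Hochberg adjustment; 2327 (16.8%) rose with input and 892 (6.44%) fell. Without 50 pg 4695 of 11416 (41.1%) were called, of which 3583 (31.4%) rose and 1112 (9.74%) fell. Over 5 to 500 ng alone 3322 of 11603 (28.6%) were called, of which 1804 (15.5%) rose and 1518 (13.1%) fell. Quantile normalization, which gives every array the same distribution, called 3786 without 50 pg, 2368 up and 1418 down, and moved the median slope of all probe sets to 0.13, against 0.30 as deposited. With each input weighted by its spread about the fitted line, the 5-input fit called 5332 and 38 named genes lost their call. Without 50 pg 30 did. That spread takes in any bend of the trend as well as the difference between the 2 arrays of an input. Leaving out 50 ng replicate 1 or 2 lowered the 5-input count to 1837 each time, and leaving out 500 ng replicate 1 or 2 lowered it to 1983 and 2014.

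The rising class moved most between 500 pg and 5 ng. The 3583 probe sets that rose without 50 pg had a median log2 difference from 500 ng of -1.83 at 50 pg, -2.50 at 500 pg, -0.84 at 5 ng and -0.32 at 50 ng. The 1112 that fell had medians of 0.75 at 50 pg, 1.92 at 500 pg, 1.05 at 5 ng and 0.58 at 50 ng. Since the classes were chosen by a slope that begins at 500 pg, their extreme at that input follows from the choice, and over all probe sets tested the medians were alike at -0.89 at 50 pg and -0.95 at 500 pg. The largest step was that between 500 pg and 5 ng in 83.3% of the rising and 57.6% of the falling probe sets, and the step between 50 and 500 ng was largest in 194 rising and 317 falling probe sets.

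**Figure D2:**
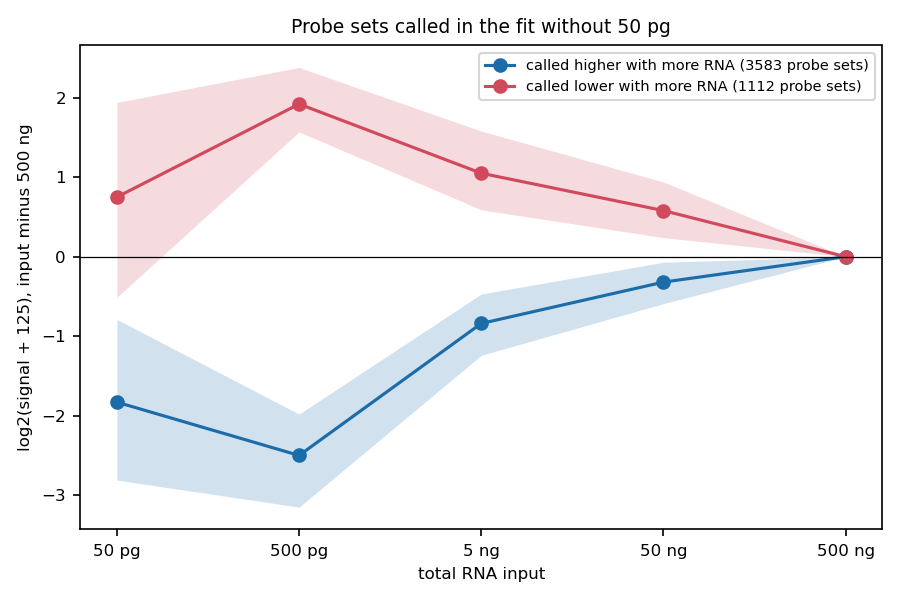
Median (line) and quartiles (band) of the log2 difference from 500 ng at each input, for the 3583 probe sets called as rising and the 1112 called as falling with input in the fit without 50 pg. The rising class lies lowest at 500 pg, at -2.50, and the falling class highest there, at 1.92, and both were chosen by slopes that begin at 500 pg.

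How far slope went with abundance differed between the fits with and without 50 pg, which hold different probe sets. With all 5 inputs, the median slope in 5 equal bins of one-cycle signal, dim to bright, was -0.36, 0.09, 0.23, 0.33 and 0.41, and the share that rose was 3.36% in the dimmest bin and 33.2% in the brightest. Without 50 pg the medians were 0.17, 0.31, 0.36, 0.37 and 0.31. Across probe sets, which are not independent, Spearman's rho between slope and one-cycle signal was 0.454 with 50 pg and 0.0819 without. The filter on mean signal kept 13843 probe sets with 50 pg and 11416 without. A probe set dim at larger inputs passes with 50 pg if it is bright there, and its slope is then bound to be negative. The negative median of the dimmest bin follows in part from the filter, and how far was not tested.

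Genes of mitochondrial energy production were among those that rose with input. NADH dehydrogenase, complex I of the respiratory chain, had 22 of 33 tested subunits (66.7%) up and 0 down over 5 inputs, with a median slope of 0.81 against 0.15 for all probe sets. Without 50 pg 24 (72.7%) rose and 0 fell (median 0.87, against 0.30 for all), and over 5 to 500 ng 11 (33.3%) rose and 1 fell (median 0.39, against 0.07). Ndufs7, an iron-sulfur subunit of complex I, had signals of 204 and 1310 at 50 pg, 570 and 2120 at 500 pg, 13800 and 13500 at 5 ng, 23900 and 33000 at 50 ng, and 50000 and 58200 at 500 ng. Its arrays did not overlap between any inputs from 500 pg up, and the slope was 1.71 ± 0.22 (SE; adjusted p = 0.0021) over 5 inputs, 1.73 ± 0.26 (0.0026) without 50 pg and 0.99 ± 0.11 (0.00042) over 5 to 500 ng. Ndufb8, an accessory subunit, had 142 and 127 at 50 pg, 1310 and 950 at 500 pg, 5810 and 7610 at 5 ng, 13500 and 15500 at 50 ng, and 15100 and 16600 at 500 ng. Here the 2 largest inputs overlapped, and the slopes were 1.54 ± 0.20 over 5 inputs and 1.22 ± 0.20 without 50 pg (adjusted p = 0.0021 and 0.0035). The medians of the complex I list relative to 500 ng were -2.92 at 50 pg, -2.78 at 500 pg, -0.78 at 5 ng and -0.33 at 50 ng, while those of all tested probe sets were -0.89, -0.95, -0.13 and 0.01.

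The other complexes had unequal counts, to be read against the 16.8% of all probe sets that rose over 5 inputs, 31.4% without 50 pg and 15.5% over 5 to 500 ng. Of 13 tested subunits of complexes II and III, which pass electrons on through ubiquinone, 10 (76.9%) rose and 0 fell over 5 inputs (median slope 0.77), 11 (84.6%) rose without 50 pg (median 0.92), and 5 (38.5%) rose over 5 to 500 ng (median 0.46). Uqcrc2, a core protein of complex III, had 3910 and 1540 at 50 pg, 4590 and 3120 at 500 pg, 14100 and 13300 at 5 ng, 24600 and 33600 at 50 ng, and 41500 and 50700 at 500 ng. It rose at every 10-fold step from 500 pg on with no overlap of arrays, at 1.12 ± 0.17 over 5 inputs (adjusted p = 0.0022). Cytochrome c oxidase, the terminal complex, had 5 of 14 members (35.7%) up and 1 down over 5 inputs (median 0.36), 9 of 13 (69.2%) up without 50 pg (median 0.63), and 3 of 13 (23.1%) up over 5 to 500 ng (median 0.23). The member that fell was Cox8b, which passed the filter on mean signal through the 50 pg arrays, so its direction was bound. ATP synthase had 11 of 15 (73.3%) up and 0 down over 5 inputs (median 0.74), 8 (53.3%) up without 50 pg (median 0.56), and 2 (13.3%) up and 1 down over 5 to 500 ng (median 0.20). Atp5d, a subunit of its rotor, had a slope of 1.25 ± 0.19 over 5 inputs (adjusted p = 0.0022) and 0.57 ± 0.11 (adjusted p = 0.0033) over 5 to 500 ng.

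Ribosomal proteins were described separately for mitochondria and cytosol. Of all probe sets 16.8% rose over 5 inputs and 31.4% without 50 pg. Of 66 mitochondrial members 32 (48.5%) rose and 0 fell over 5 inputs (median slope 0.61); of 65 without 50 pg 36 (55.4%) rose and 1 fell (median 0.65). Mrpl12, of the large mitochondrial subunit, had 819 and 1340 at 50 pg, 70.9 and 49.5 at 500 pg, 3280 and 3140 at 5 ng, 7690 and 8130 at 50 ng, and 9530 and 8370 at 500 ng. Its lowest arrays were those at 500 pg and not at 50 pg, and its slope was 1.13 ± 0.28 with 50 pg (adjusted p = 0.014) and 1.81 ± 0.31 without (adjusted p = 0.0037). Of 43 cytosolic ribosomal proteins 10 (23.3%) rose and 1 fell over 5 inputs, with a median of 0.25, and 9 of 42 (21.4%) rose without 50 pg, with a median of 0.24 that lay below that of all probe sets. These counts depended on scaling, since after quantile normalization 18 rose over 5 inputs (median 0.56) and 14 without 50 pg (median 0.37). Rplp0, of the ribosomal stalk, was among those that rose, with 1350 and 9790 at 50 pg, 11000 and 3860 at 500 pg, 29600 and 35000 at 5 ng, 36700 and 45900 at 50 ng, and 52000 and 62700 at 500 ng. Its slope was 1.04 ± 0.21 over 5 inputs (adjusted p = 0.006).

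Proteasome and chaperonin counts are set beside the 16.8% of all probe sets that rose over 5 inputs and 31.4% without 50 pg. Of 17 subunits of the 20S core, the chamber that cuts ubiquitin-tagged proteins, 10 (58.8%) rose and 0 fell over 5 inputs (median slope 0.80), and of 17 subunits of the 19S cap, which unfolds them, 8 (47.1%) rose and 0 fell (median 0.74). Over 5 to 500 ng alone the core had 2 (11.8%) up and 1 down (median 0.15), and the cap 3 (17.6%) up and 1 down (median 0.27), near the 15.5% of all probe sets that rose. Psma7, a ring subunit, had 334 and 1740 at 50 pg, 1130 and 2120 at 500 pg, 7730 and 7780 at 5 ng, 12500 and 14800 at 50 ng, and 13100 and 14500 at 500 ng. The 2 largest inputs overlapped, and its slope of 1.09 ± 0.20 over 5 inputs (adjusted p = 0.0036) became 0.41 ± 0.12 over 5 to 500 ng, under the 2-fold limit. In the CCT chaperonin, which folds actin and tubulin, 5 of 8 subunits rose over 5 inputs (median 0.63), and 2 of 8 without 50 pg (median 0.19, below the 0.30 of all probe sets). After quantile normalization 4 of 8 rose without 50 pg, with a median of 0.38 that lay above the 0.13 of all. Cct7 had 251 and 121 at 50 pg, 680 and 2710 at 500 pg, 11000 and 12600 at 5 ng, 21900 and 27800 at 50 ng, and 38700 and 43300 at 500 ng. No inputs of Cct7 overlapped, and its slope was 1.54 ± 0.24 without 50 pg (adjusted p = 0.0028) and 0.90 ± 0.11 over 5 to 500 ng (adjusted p = 0.00056).

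Lists of DNA replication and of macrophages were partly called. All probe sets together had 16.8% up over 5 inputs and 31.4% without 50 pg. Of 25 tested replication genes 10 (40%) rose and 1 fell over 5 inputs (median slope 0.55), and 15 (60%) rose and 1 fell without 50 pg (median 0.48). After quantile normalization 9 rose and 2 fell without 50 pg (median 0.30, against 0.13 for all). Pold1, the catalytic subunit of DNA polymerase delta, had 5100 and 110 at 50 pg, 649 and 1210 at 500 pg, 6620 and 2130 at 5 ng, 8310 and 11900 at 50 ng, and 27900 and 25900 at 500 ng. The 50 pg arrays lay far apart, and from 500 pg up each input lay above the one below it, with slopes of 1.56 ± 0.18 without 50 pg (adjusted p = 0.0019) and 1.40 ± 0.21 over 5 to 500 ng (adjusted p = 0.0011). Mcm5, part of the replicative helicase, had a slope of 1.52 ± 0.24 without 50 pg (adjusted p = 0.0028). Macrophage genes had the highest list median of the lists with at least 6 tested members without 50 pg, 1.03, with 10 of 13 (76.9%) up and 0 down; over 5 inputs it was 0.73, with 9 of 14 (64.3%) up. Mpeg1, a pore-forming protein of phagocytes, had 526 and 568 at 50 pg, 64.5 and 63.9 at 500 pg, 1100 and 1480 at 5 ng, 2820 and 2620 at 50 ng, and 5590 and 6170 at 500 ng. It was lowest at 500 pg and in order from there up, with a slope of 1.60 ± 0.18 without 50 pg (adjusted p = 0.0019). Csf1r, the receptor for macrophage colony-stimulating factor, had slopes of 1.36 ± 0.22 without 50 pg (adjusted p = 0.0029) and 0.82 ± 0.21 over 5 to 500 ng (adjusted p = 0.011).

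Glycolytic enzymes had 7 of 13 members (53.8%) up and 1 down over 5 inputs (median slope 0.69), where 16.8% of all probe sets rose. Without 50 pg 9 (69.2%) rose (median 0.68), against 31.4% of all. Translation initiation factors had 9 of 29 (31%) up and 4 down over 5 inputs (median 0.28), and 9 up and 3 down without 50 pg (median 0.25), where 31.4% of all probe sets rose with a median of 0.30. Splicing factors had 11 of 38 (28.9%) up and 3 down over 5 inputs (median 0.32). Over 5 to 500 ng 4 (10.5%) rose and 5 (13.2%) fell (median 0.03). Of all probe sets 15.5% rose and 13.1% fell in that fit (median 0.07), so these shares lay near those of all. Of 20 tested genes of elongin and ubiquitin conjugation, 6 (30%) rose and 5 (25%) fell without 50 pg (median 0.12). Of all probe sets 31.4% rose and 9.74% fell there. Elob, a subunit of elongin and of cullin ubiquitin ligases, had 191 and 494 at 50 pg, 26800 and 2160 at 500 pg, 11700 and 12200 at 5 ng, 40200 and 54400 at 50 ng, and 65200 and 79000 at 500 ng. The first 500 pg array exceeded both 5 ng arrays, and the slope was 1.73 ± 0.26 over 5 inputs (adjusted p = 0.0023) and 1.29 ± 0.17 over 5 to 500 ng (adjusted p = 0.00063).

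Without 50 pg mitotic genes, chaperones and collagens lay near the 31.4% of all probe sets that rose. Over 5 inputs, where 16.8% of all rose, the shares of these lists lay further from it. Mitotic genes had 5 of 19 (26.3%) up and 0 down over 5 inputs (median slope 0.38) and 6 (31.6%) up without 50 pg (median 0.37). Cytosolic and ER chaperones had 7 of 18 (38.9%) up and 3 down over 5 inputs (median 0.40), after quantile normalization 7 up and 0 down, and without 50 pg 5 of 17 (29.4%) up. Collagens and other matrix genes had 1 of 21 (4.76%) up and 1 down over 5 inputs (median 0.19), and 6 of 20 (30%) up and 1 down without 50 pg (median 0.24). Few genes of T and B cells were tested. Of 9 over 5 inputs 2 (22.2%) rose and 1 fell (median 0.34), and 3 of 6 (50%) rose and 1 fell without 50 pg (median 0.70). The gene that fell over 5 inputs was Cd4, which passed the filter on mean signal with 50 pg and not without. Its fall follows in part from the filter. Cd74, the invariant chain of class II antigen presentation, had 3630 and 328 at 50 pg, 1050 and 952 at 500 pg, 4620 and 4320 at 5 ng, 8070 and 9700 at 50 ng, and 12100 and 12900 at 500 ng. From 500 pg up no inputs of Cd74 overlapped, and its slope without 50 pg was 1.14 ± 0.16 (adjusted p = 0.0022). Eif6, an anti-association factor of the large ribosomal subunit, had 186 and 75.6 at 50 pg, 3560 and 1740 at 500 pg, 6310 and 5210 at 5 ng, 8500 and 12900 at 50 ng, and 16700 and 13000 at 500 ng. Both 50 pg arrays were lowest, and the slope of Eif6 was 1.38 ± 0.21 over 5 inputs (adjusted p = 0.0023) and 0.84 ± 0.15 without 50 pg (adjusted p = 0.0041). Of the long noncoding RNAs 1 of 7 tested fell and 0 rose over 5 inputs, and the 1 that fell was Xist.

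**Figure D3:**
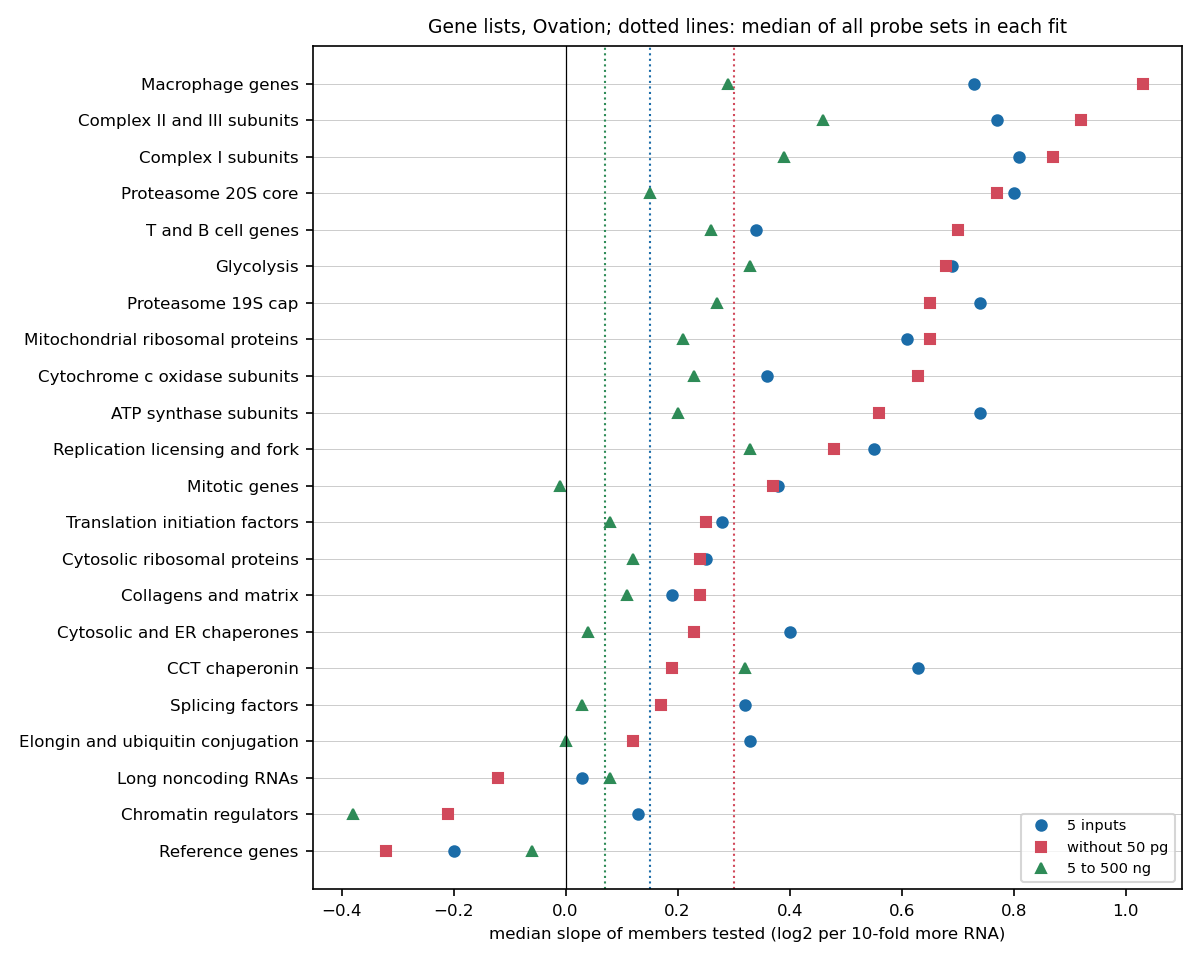
Median slope (log2 signal per 10-fold more RNA) of the tested members of 22 gene lists in the fits over 5 inputs, without 50 pg and over 5 to 500 ng, with the median of all probe sets dotted (0.15, 0.30 and 0.07). Complexes I to III and macrophage genes lie to the right of the dotted lines in all 3 fits, and chromatin regulators and reference genes lie to the left in all 3.

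The genes with the largest positive slopes without 50 pg, among those called with and without 50 pg, were Commd9, Nasp, Mrpl12, Mrps24, Ahsa1, Ccdc107, Ndufs7 and Dlk1. Commd9, a component of the COMMD complex of endosomal sorting, had 4500 and 129 at 50 pg, 118 and 31.6 at 500 pg, 1320 and 1970 at 5 ng, 7700 and 9000 at 50 ng, and 13000 and 16800 at 500 ng. Its slope was 2.10 ± 0.21 without 50 pg (adjusted p = 0.0019), and 1.55 ± 0.18 over 5 to 500 ng (adjusted p = 0.00048). Each 10-fold step from 500 pg on brought more signal with no overlap. A second probe set of Commd9 also rose, at 0.96 without 50 pg, and the other one had a slope of -0.13 over 5 inputs (adjusted p = 0.72). Nasp, a histone chaperone, had 246 and 1210 at 50 pg, 135 and 25.6 at 500 pg, 3300 and 1860 at 5 ng, 7280 and 6430 at 50 ng, and 10400 and 9620 at 500 ng. Ahsa1, a co-chaperone of Hsp90, had 1220 and 531 at 50 pg, 23.4 and 247 at 500 pg, 4770 and 4160 at 5 ng, 6400 and 8220 at 50 ng, and 10900 and 11300 at 500 ng. Both were lowest at 500 pg, and their slopes without 50 pg were 1.85 ± 0.27 for Nasp (adjusted p = 0.0025) and 1.74 ± 0.32 for Ahsa1 (adjusted p = 0.0045). Dlk1, a membrane protein of the Notch ligand family, had 2640 and 277 at 50 pg, 82.0 and 66.6 at 500 pg, 1120 and 1440 at 5 ng, 2160 and 2450 at 50 ng, and 7500 and 8300 at 500 ng. Its slope was 1.68 ± 0.17 without 50 pg (adjusted p = 0.0019). With 50 pg its call was lost without 50 pg replicate 2 (slope 0.96, adjusted p = 0.052) or either 500 ng array (0.87 and 0.85, adjusted p = 0.078 and 0.081), and that of Mrps24 without the same 3 arrays (0.99, 1.14 and 1.14, adjusted p = 0.079, 0.056 and 0.056).

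The genes with the largest negative slopes without 50 pg, among those called with and without 50 pg, were D930016D06Rik, Xist, Zfp111, Zfp280c, Arid4b, Hipk3, Mapre1 and Dmd. Some of them declined at each step from 500 pg on, also between 5 and 500 ng, where the hybridisation controls of the 3 inputs overlapped. Between 500 pg and 5 ng the controls fell as well. Xist, the long noncoding RNA that silences an X chromosome, had 22100 and 84700 at 50 pg, 26000 and 24600 at 500 pg, 14700 and 18700 at 5 ng, 6450 and 4750 at 50 ng, and 1590 and 1220 at 500 ng. No inputs from 500 pg up overlapped, and its slope was -1.18 ± 0.18 over 5 inputs (adjusted p = 0.0023), -1.38 ± 0.15 without 50 pg (0.0019) and -1.73 ± 0.13 over 5 to 500 ng (0.00017). Other probe sets of Xist did not all go with it. One more fell, at -0.58 without 50 pg (adjusted p = 0.026), and another went the other way, with 2900 and 2010 at 50 pg, 4460 and 863 at 500 pg, 7910 and 8920 at 5 ng, 9970 and 10400 at 50 ng, and 9610 and 8370 at 500 ng. That probe set was called as rising over 5 inputs (slope 0.60, adjusted p = 0.041), so the probe sets of Xist did not move together. Divided by the hybridisation controls, the first probe set of Xist read 0.0151 and 0.123 at 50 pg, 0.231 and 0.134 at 500 pg, 0.712 and 0.426 at 5 ng, 0.299 and 0.152 at 50 ng, and 0.0516 and 0.0333 at 500 ng. On that scale it was highest at 5 ng and declined from there to 500 ng, and the step from 500 pg to 5 ng turned round.

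Hipk3, a nuclear protein kinase, had 11400 and 21900 at 50 pg, 35400 and 34300 at 500 pg, 12800 and 13600 at 5 ng, 7300 and 6540 at 50 ng, and 3120 and 2690 at 500 ng. Smarca5, the motor of ISWI chromatin remodellers, had 21900 and 39600 at 50 pg, 34300 and 45200 at 500 pg, 20400 and 19900 at 5 ng, 10500 and 11000 at 50 ng, and 5210 and 6310 at 500 ng. In both genes the 4 larger inputs stood in order with no overlap. The slopes without 50 pg were -1.15 ± 0.11 for Hipk3 and -0.92 ± 0.12 for Smarca5 (adjusted p = 0.0019 and 0.002), and over 5 to 500 ng -1.07 ± 0.10 and -0.89 ± 0.10 (adjusted p = 0.00031 and 0.00041). A second Smarca5 probe set went the other way and was called, with a slope of 0.83 over 5 inputs (adjusted p = 0.019) and 0.68 without 50 pg (adjusted p = 0.023), and the other one tested was not called, so the decline of Smarca5 holds for 1 probe set alone. Divided by the hybridisation controls, Hipk3 read 0.00775 and 0.0318 at 50 pg, 0.314 and 0.187 at 500 pg, 0.617 and 0.309 at 5 ng, 0.338 and 0.21 at 50 ng, and 0.102 and 0.0732 at 500 ng. On that scale too both 500 ng arrays lay below those of 500 pg to 50 ng, while the 500 pg and 5 ng arrays overlapped. With 50 pg in the fit their calls were lost without 500 ng replicate 1 or 2, where Hipk3 had slopes of -0.66 and -0.63 (adjusted p = 0.066 and 0.071) and Smarca5 -0.60 and -0.64 (adjusted p = 0.063 and 0.052). Dmd, which encodes dystrophin of the muscle membrane skeleton, was dimmer, with 464 and 2270 at 50 pg, 1830 and 1860 at 500 pg, 471 and 400 at 5 ng, 151 and 134 at 50 ng, and 33.3 and 107 at 500 ng. Without 50 pg it passed the filter on mean signal through the 500 pg arrays, and the arrays of 5 ng and above all lay under 500, so its direction was bound by the filter. The slopes were -0.81 ± 0.19 over 5 inputs (adjusted p = 0.011) and -1.11 ± 0.15 without 50 pg (adjusted p = 0.0021).

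D930016D06Rik, an unnamed transcript, had 7500 and 1070 at 50 pg, 16700 and 9270 at 500 pg, 2550 and 2040 at 5 ng, 1230 and 1080 at 50 ng, and 546 and 340 at 500 ng. Zfp280c, a zinc finger protein, had 1710 and 76200 at 50 pg, 28000 and 7840 at 500 pg, 9080 and 7080 at 5 ng, 4250 and 2700 at 50 ng, and 1210 and 757 at 500 ng. From 5 ng up the inputs of both genes stood in order with no overlap, and their slopes without 50 pg were -1.44 ± 0.17 for D930016D06Rik (adjusted p = 0.0019) and -1.26 ± 0.19 for Zfp280c (adjusted p = 0.0027). A second probe set of D930016D06Rik had a slope of 0.59 without 50 pg (adjusted p = 0.058). Zfp111, another zinc finger protein, was bright at 500 pg alone, with 4380 and 3820, against 550 and 1080 at 50 pg and 40.6 to 231 at the larger inputs. It passed the filter on mean signal without 50 pg through the 500 pg arrays, so its slope there had to be negative. That slope, -1.32 ± 0.33 (adjusted p = 0.013), was not called without 500 pg replicate 1 (-1.03, adjusted p = 0.051). With 50 pg in the fit, the calls of these genes were lost on leaving out single arrays. For D930016D06Rik these were 50 pg replicate 1 and each of the 50 and 500 ng arrays (slopes of -0.82 to -0.72, adjusted p = 0.052 to 0.1). For Zfp111 they were each of the 50 and 500 ng arrays (-0.93 to -0.79, adjusted p = 0.056 to 0.074). For Zfp280c they were 50 pg replicate 2, 500 pg replicate 1 and each array of 5, 50 and 500 ng (-0.93 to -0.62, adjusted p = 0.051 to 0.16).

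Chromatin regulators, large enzymes and cohesin subunits, were mixed. Over 5 inputs 2 of 27 (7.41%) rose and 4 (14.8%) fell, against 16.8% and 6.44% of all probe sets. The median slope was 0.13, or -0.01 after quantile normalization. Without 50 pg 3 of 26 (11.5%) rose and 8 (30.8%) fell (median -0.21), against 31.4% and 9.74% of all. Over 5 to 500 ng 1 (3.85%) rose and 11 (42.3%) fell (median -0.38), against 15.5% and 13.1% of all. Relative to 500 ng the list stood at -0.75 at 50 pg, 0.66 at 500 pg, 0.76 at 5 ng and 0.58 at 50 ng. Each member was represented by its brightest probe set over the fitted arrays, and the counts depend in part on that choice. Smc1a, a ring subunit of cohesin, was among the rising members, with 3150 and 100 at 50 pg, 896 and 1150 at 500 pg, 2540 and 3080 at 5 ng, 4400 and 4870 at 50 ng, and 9740 and 8480 at 500 ng, and a slope of 0.98 ± 0.12 without 50 pg (adjusted p = 0.002). Its other probe sets had slopes of 0.54 and 0.37 without 50 pg (adjusted p = 0.11 and 0.058) and were not called there. Over 5 inputs the former was called (0.66, adjusted p = 0.03) and the latter was not. Arid4b, a subunit of Sin3 deacetylase complexes, had 1 probe set that fell at -1.17 and 1 that rose at 0.99 without 50 pg, and both were called. The first of them was also called over 5 inputs (slope -0.82, adjusted p = 0.026), but not without 50 pg replicate 2 or any 1 array of 50 or 500 ng (-0.83 to -0.64, adjusted p = 0.05 to 0.089). Of 2300 genes with at least 2 probe sets tested without 50 pg, 556 had at least 2 called the same way and none opposite, and 82 had probe sets called opposite ways.

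Other falling genes were not called over 5 to 500 ng and stood high at 50 and 500 pg, where the hybridisation controls were also high. Actb, beta-actin, had 1350000 and 1020000 at 50 pg, 261000 and 372000 at 500 pg, 75100 and 102000 at 5 ng, 54400 and 73400 at 50 ng, and 56300 and 75800 at 500 ng. The 3 larger inputs overlapped, and the slope was -1.06 ± 0.19 over 5 inputs (adjusted p = 0.0036), -0.72 ± 0.19 without 50 pg (0.015) and -0.21 ± 0.14 over 5 to 500 ng (0.24). With weights by input Actb was called in neither fit (-0.33, adjusted p = 0.09, over 5 inputs and -0.23, adjusted p = 0.19, without 50 pg). A second Actb probe set, with signals between 10500 and 45800 on the 10 arrays, had a slope of 0.08 over 5 inputs (adjusted p = 0.78). Divided by the hybridisation controls, the first Actb probe set read 0.922 and 1.48 at 50 pg, 2.32 and 2.03 at 500 pg, 3.63 and 2.33 at 5 ng, 2.52 and 2.35 at 50 ng, and 1.83 and 2.06 at 500 ng, so both 50 pg arrays were then the lowest. Ywhaz, the zeta 14-3-3 protein, had 315000 and 238000 at 50 pg, 99200 and 117000 at 500 pg, 27800 and 42300 at 5 ng, 22300 and 21900 at 50 ng, and 21800 and 26600 at 500 ng. Its slope was -0.93 ± 0.18 over 5 inputs (adjusted p = 0.0045) and -0.25 ± 0.14 over 5 to 500 ng (adjusted p = 0.17), and with weights by input it was not called over 5 inputs (-0.33, adjusted p = 0.072). Of its 6 other probe sets tested, with slopes of -0.67 to 0.29 without 50 pg, 3 were also called as falling there.

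Mapre1, a protein of growing microtubule ends, had 30200 and 258000 at 50 pg, 57900 and 65100 at 500 pg, 8240 and 12600 at 5 ng, 8210 and 5380 at 50 ng, and 5950 and 4280 at 500 ng. It was higher at 500 pg than at any larger input, and its slope was -1.13 ± 0.21 without 50 pg (adjusted p = 0.0047) and -0.50 ± 0.15 over 5 to 500 ng, short of the 2-fold limit. Its 3 other probe sets tested had slopes of -0.18 to 0.09 without 50 pg, and none was called. As a list, 10 tested reference genes, which are often used to normalise, had 0 up and 3 (30%) down over 5 inputs (median -0.20). Of all probe sets 16.8% rose and 6.44% fell there. Without 50 pg 1 (10%) rose and 4 (40%) fell (median -0.32), against 31.4% and 9.74% of all probe sets. Over 5 to 500 ng 1 (10%) rose and 1 (10%) fell (median -0.06), near the 15.5% and 13.1% of all. The hybridisation controls moved with these declines, and their part in them was not tested. Each gene of the list was represented by its probe set of highest mean signal over the fitted arrays. Very high signals at 50 or 500 pg, as in Actb, therefore helped to decide which probe set was counted. The falls of the list follow in part from that choice, and how far was not tested.

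**Figure D4:**
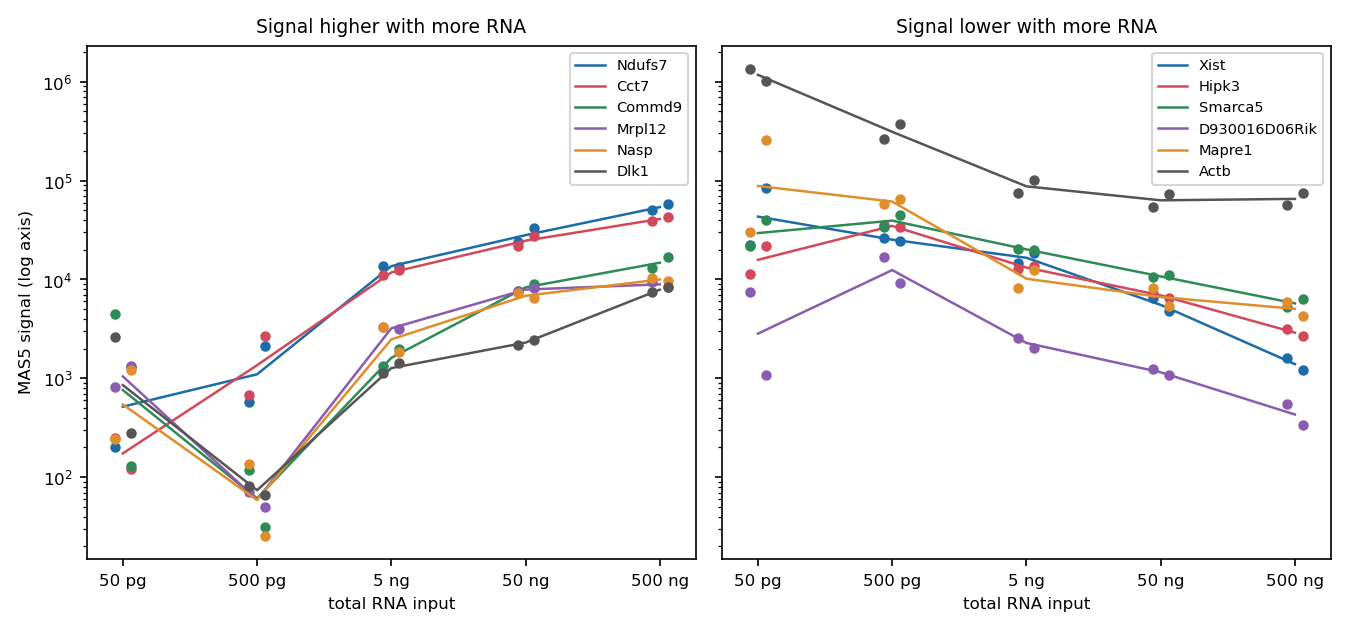
Signal by Ovation input, on log axes, of 6 probe sets that rose with input (left: Ndufs7, Cct7, Commd9, Mrpl12, Nasp, Dlk1) and 6 that fell (right: Xist, Hipk3, Smarca5, D930016D06Rik, Mapre1, Actb). Points are arrays and lines join the geometric means of 2 arrays; Commd9, Mrpl12, Nasp and Dlk1 are lowest at 500 pg, and the Actb arrays of 5, 50 and 500 ng overlap.

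Genes of specialised tissues were dim in this RNA above 50 pg. Of 20 liver genes on the array 5 passed the filter on mean signal over 5 inputs and 0 without 50 pg. Of 25 striated muscle genes 11 passed with 50 pg and 4 without, of 17 neuronal genes 8 and 3, of 12 erythroid genes 3 and 1, and of 15 male germ cell genes 4 and 1. Cox8b, a cytochrome c oxidase subunit of heart and muscle, had 2750 and 2730 at 50 pg, 297 and 755 at 500 pg, 198 and 37.3 at 5 ng, 17.9 and 40.6 at 50 ng, and 35.4 and 65.8 at 500 ng. It was far higher at 50 pg than elsewhere and passed the filter through those arrays, so its slope of -1.01 ± 0.20 (adjusted p = 0.0055) was bound to be negative. Apoh, a plasma protein of liver, had 4230 and 1550 at 50 pg and 21.6 to 196 on the other 8 arrays.

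Set directly against 500 ng, 500 pg differed most. In a fit of the 8 arrays from 500 pg up, 5515 of 11416 probe sets (48.3%) were called, 1303 (11.4%) higher and 4212 (36.9%) lower at 500 pg, with a median difference of -0.95. After quantile normalization the median was -0.41 and the calls were 1585 higher and 2670 lower. The 500 pg arrays spread more than the others while sharing their estimate, so these p-values are too small, and with the 4 arrays of 500 pg and 500 ng alone 2265 were called. Without 500 ng replicate 1 or 2 the count was 2994 and 2753.

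At 500 pg the largest deficits were those of Commd9 (log2 difference -6.26 ± 0.36, adjusted p = 0.00066), Nasp (-5.68 ± 0.40), Ccdc107 (-5.62 ± 0.27), Mrpl12 (-5.61 ± 0.26) and Ahsa1 (-5.58 ± 0.46). The largest excess was that of Zfp207, a zinc finger protein, which had 6770 and 19900 at 500 pg against 350 and 247 at 500 ng, a difference of 4.81 ± 0.51 (adjusted p = 0.00099). Its other 3 probe sets in that fit had slopes of -1.37, which was called, and 0.37 and 0.14, which were not. Fubp1, a DNA-binding regulator of Myc, had 31000 and 22700 at 500 pg against 900 and 1090 at 500 ng (4.58 ± 0.77, adjusted p = 0.0041). Its other 3 probe sets had slopes without 50 pg of -0.85, which was called, and -0.08 and 0.44, which were not. Zfp654 had 2300 and 8010 at 500 pg against 148 and 32.1 at 500 ng (4.42 ± 0.62, adjusted p = 0.0022). For each of these genes both 500 pg arrays lay outside the range of the 500 ng arrays, as the rule for naming them required. In Zfp207 and Zfp654 the 500 pg arrays alone were enough to pass the filter on mean signal, while both 500 ng arrays lay under 500. Their excess at 500 pg follows in part from the filter.

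At 5 ng 429 probe sets (3.76%) were called against 500 ng, 241 (2.11%) higher and 188 (1.65%) lower, and quantile normalization called 486 higher and 275 lower. This count changed with the arrays that shared the spread. It was 3301 without 500 pg replicate 1 and 3315 without 500 pg replicate 2, 0 without any 1 of the arrays of 5, 50 or 500 ng, and 3349 in a fit of the 6 arrays of 5, 50 and 500 ng, added later. Xist at 5 ng was 3.46 above 500 ng (adjusted p = 0.04), and Commd9 was 3.10 below it (log2 difference -3.10, adjusted p = 0.04). At 50 ng limma called 0 of 11416 (0%) against 500 ng, with 929 at an unadjusted p under 0.05. The fit of 6 arrays called 816, the 4 arrays of 50 and 500 ng alone 912, and the fits without 500 pg replicate 1 or 2 called 804 and 815. The median differences of all probe sets from 500 ng, -0.13 at 5 ng and 0.01 at 50 ng, were small.

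The trend differed between Ovation and the other kits over the same inputs. Without 50 pg the Ovation slope differed from the two-cycle slope in 4588 of 12707 probe sets (36.1%), 3606 (28.4%) with a higher Ovation slope and 982 (7.73%) with a lower one, by an interaction term in limma over 24 arrays. Against RiboAmp HS 5638 (44.4%) differed, 4244 (33.4%) higher and 1394 (11%) lower. Over 5 inputs 1367 of 15598 (8.76%) differed from two-cycle, 1019 (6.53%) higher and 348 (2.23%) lower, and 2290 (14.7%) from RiboAmp HS, 1817 (11.6%) higher and 473 (3.03%) lower. The split depended on scaling: after quantile normalization the counts without 50 pg were 2051 higher and 1166 lower than two-cycle and 2827 higher and 1728 lower than RiboAmp HS, and over 5 inputs 577 and 325, and 1003 and 510. Over 5, 50 and 500 ng alone, a fit added later, the split was 853 higher and 730 lower than two-cycle and 3036 higher and 2284 lower than RiboAmp HS. Without the first Ovation 50 pg array the 5-input count against two-cycle was 2430, and it was 854 and 883 without two-cycle 500 ng replicate 1 and 2. Against RiboAmp HS the 5-input count was 1479 without RiboAmp HS 500 ng replicate 1. Some arrays of the other kits had few dim probe sets, like the first Ovation 50 pg array. Two-cycle 500 pg replicate 2, which is in the fit without 50 pg, had 71 signals below 100, against 4672 on replicate 1. Its r with the one-cycle mean was 0.851, against 0.945. At 50 pg replicate 2 of two-cycle and of RiboAmp HS had 96 and 115. The kits hybridised different targets, cDNA for Ovation and cRNA for the others, and kit and target cannot be told apart.

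Commd9 had slopes without 50 pg of 2.10 with Ovation, -0.07 with two-cycle and -0.47 with RiboAmp HS. Its two-cycle signals from 500 pg up lay between 1570 and 2470, and the 4 one-cycle arrays between 1770 and 1880, while the 50 and 500 ng Ovation arrays, at 7700 to 16800, lay above all of them. The Ovation slope of Commd9 exceeded the two-cycle slope by 2.17 ± 0.29 (adjusted p = 4e-05) and the RiboAmp HS slope by 2.57 ± 0.29 (adjusted p = 1.8e-06). Mrpl12 had slopes of 1.81 with Ovation, -0.06 with two-cycle and -0.72 with RiboAmp HS, and Ndufs7 had 1.73, -0.06 and -0.53.

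Xist had a slope of -1.38 with Ovation, 0.08 with two-cycle and 0.44 with RiboAmp HS. Its signal at 500 ng was 1590 and 1220 with Ovation, against 7240 and 6800 with two-cycle, 36100 and 42200 with RiboAmp HS and a mean of 16300 on the 4 one-cycle arrays. The differences of the Ovation slope were -1.45 ± 0.19 from two-cycle (adjusted p = 3.6e-05) and -1.82 ± 0.19 from RiboAmp HS (adjusted p = 1.2e-06). Fubp1 likewise had -1.49 with Ovation, -0.02 with two-cycle and 0.47 with RiboAmp HS, and Zfp654 had -1.53, 0.21 and 0.33. Over 5 to 500 ng alone the Fubp1 difference from two-cycle was -1.12 (adjusted p = 0.077).

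The counts by list are to be read against all probe sets tested. Among these the Ovation slope was higher than that of two-cycle in 28.4% and lower in 7.73%. Against RiboAmp HS it was higher in 33.4% and lower in 11%. The Ovation slope exceeded the two-cycle slope in 22 of 33 complex I subunits and was lower in 0, with a median difference of 0.74 against 0.30 for all probe sets. It exceeded the RiboAmp HS slope in 23 and was lower in 0, with a median of 0.87 against 0.31. Of 66 mitochondrial ribosomal proteins the Ovation slope was higher than that of two-cycle in 41 and lower in 1 (median 0.69), and higher than that of RiboAmp HS in 43 (median 0.85). Cytosolic ribosomal proteins had a higher Ovation slope than two-cycle in 12 of 43 and a lower one in 0. That share of higher slopes and the median of 0.33 lay near those of all probe sets. Against RiboAmp HS the Ovation slope was higher in 26 and lower in 0, with a median of 0.59. Chromatin regulators had a lower Ovation slope in 7 of 26 and a higher one in 4 against two-cycle (median -0.23), and in 9 and 5 against RiboAmp HS (median -0.33).

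**Figure D5:**
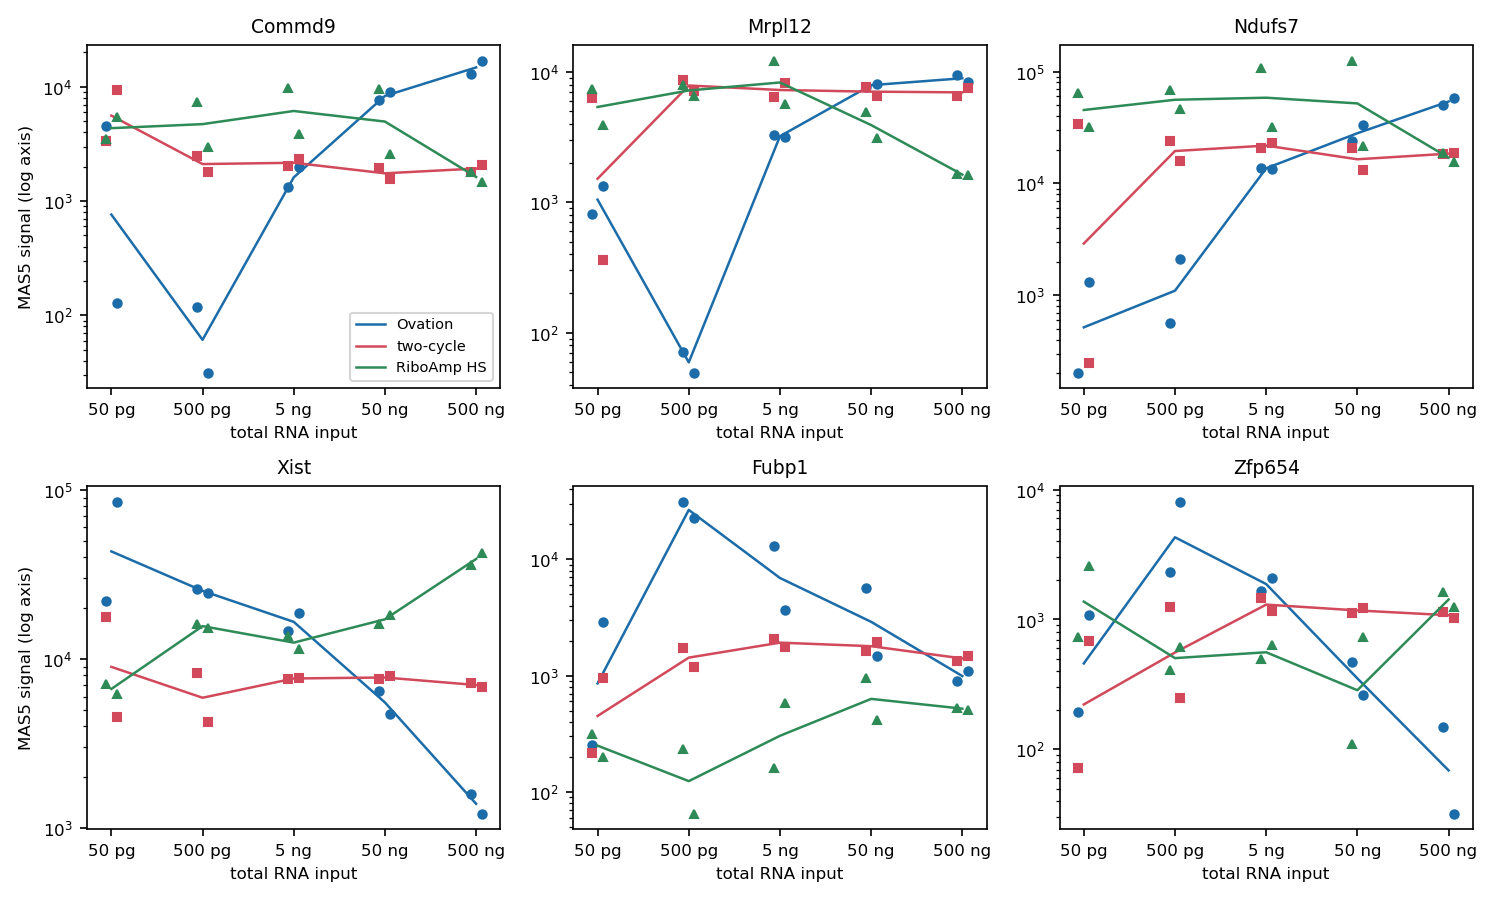
Signal by input, on log axes, of Commd9, Mrpl12, Ndufs7, Xist, Fubp1 and Zfp654 with Ovation, two-cycle and RiboAmp HS (points are arrays, lines join geometric means of 2 arrays). Without 50 pg the Ovation slopes are 2.10, 1.81, 1.73, -1.38, -1.49 and -1.53, and those of two-cycle lie between -0.07 and 0.21.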

How the data were processed

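The authors deposited one signal intensity per probe set and array on a linear scale, and the submitters' processing notes name MAS5 with no version. The values show that every array had been scaled to a trimmed mean of 2500.23 to 2502.45 (2% cut at each end). Arrays were brought to exactly 2501 and log2(signal + 125) was taken, which understates changes of dim probe sets. Tests left out the 64 control probe sets and any with a mean under 500 over the fitted arrays; a gene dim at most inputs passes through the input where it is bright. Gene names came from the array's annotation, in which 20393 probe sets had 1 symbol, 691 had several and were not named, and 1606 were unlisted. Symbols were checked by Entrez number against RefSeq (GRCm38.p6, names alone): 20364 matched and 0 changed. A gene was represented by its probe set with the highest mean signal over the fitted arrays. The inputs where a probe set is brightest thus helped to decide which one was counted, and the list counts depend in part on that choice.

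Slopes, differences between inputs and differences of slope between kits were fitted with limma 3.58.1 in R 4.3.3 (lmFit, eBayes, two-sided, Benjamini-Hochberg over all probe sets of a fit). A probe set was called at an adjusted p under 0.05 with at least 2-fold over the range fitted. Correlations used 100000 permutations in scipy 1.17.1 (Python 3.11.15, numpy 2.4.6, pandas 2.3.3); figures were drawn with matplotlib 3.10.9. Some of the fits were tested on simulated data, in which all probe sets of an input had the same spread. The limit set there on false calls was not applied to 500 pg against 500 ng, where the shared spread makes extra calls. Named genes were the 8 with the largest slope each way among those called in both slope fits, up to 4 called members of each of 27 lists each way, the 5 largest differences each way at 500 pg and between kits, Actb and control probe sets. The members and lists were chosen with earlier results of these data known. Alternatives changed the pseudocount (25, 500), the filter (none, 1000), the normalization (quantile), the replicate block, weights by input, the prior, the arrays in a fit and each replicate. The number of arrays limits the precision.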

Additional observations from a re-analysis of the deposited data

Results flagged for a closer look

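The slope on input differed between Ovation and the other kits by an interaction term in limma (adjusted p under 0.05 and at least 2-fold over the inputs). The Ovation slope differed from the two-cycle slope in 1367 probe sets over 5 inputs and 4588 without 50 pg, and from the RiboAmp HS slope in 2290 and 5638.

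Among genes, the Ovation slope without 50 pg exceeded that of two-cycle by 2.17 for Commd9, 1.99 for Dlk1, 1.88 for Mrps24, 1.87 for Mrpl12 and 1.86 for Ppox, an enzyme of heme synthesis. It lay below that of two-cycle for Zfp654 (-1.74), Fubp1 (-1.48), Xist (-1.45), the Wnt co-receptor Lrp6 (-1.44) and the mitotic kinase Wee1 (-1.41). Against RiboAmp HS it was higher by 2.57 for Commd9, 2.54 for Mrpl12, 2.36 for Stx5a, 2.28 for Cuedc2 and 2.26 for Ndufs7, and lower for Fubp1 (-1.96), Zfp654 (-1.86), Xist (-1.82), Lin7c (-1.69) and Frk (-1.65). The slopes of these 15 genes lay between -0.31 and 0.33 with two-cycle and between -0.77 and 0.77 with RiboAmp HS. The cause of the differences was not tested.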

How the results depend on the processing

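Leaving out 1 array at a time gave 1837 to 3892 calls for the 5-input slope, 3241 to 4871 for the slope without 50 pg, 2753 to 7786 for 500 pg, 0 to 3315 for 5 ng and 0 to 815 for 50 ng against 500 ng. For the kit differences, where the arrays of the other kits were left out too (added after the data were seen), it gave 854 to 2430 and 3632 to 5020 (two-cycle, with and without 50 pg) and 1479 to 3334 and 4621 to 6065 (RiboAmp HS). Weights by input called 5332 over 5 inputs, 1737 of them among the 3219. The 4 arrays of a pair of inputs alone called 2265 at 500 pg, 3296 at 5 ng and 912 at 50 ng, and the 6 arrays of 5, 50 and 500 ng, added after the data were seen, 3349 and 816 at the last 2. The 5 ng count was 761 with quantile normalization, 0 with a pseudocount of 25 or no filter and 1039 with a pseudocount of 500. Quantile normalization gave 902 (two-cycle) and 1513 (RiboAmp HS) over 5 inputs. Over 5, 50 and 500 ng alone, also added, the kits differed in 1583 and 5320. Replicate numbers do not pair the arrays (correlations of deviations of -0.0175 to 0.133, 2 of 10 above 0.1). With the replicate block the slopes had 2959 and 4373 calls, 500 pg 5375 and 5 ng 0. Without 50 pg, r with log10 input was 0.865 for the median signal (-0.168 with it), -0.652 for the share of signal in the top 1% of probe sets (-0.843), -0.915 for the middle 18S probe set (-0.663), -0.689 for the hybridisation controls (-0.846) and 0.899 for the poly(A) controls (0.715). Signs turned under weights by input for Eif3b (0.05), Cenpa (-0.01), Mad2l1 (-0.09), Myh7 (0.07) and Cd4 (0.22) over 5 inputs and Stmn2 (-0.01) without 50 pg, and over 5 to 500 ng alone for Sdhc (-0.01) and Stmn2 (-0.10). The cause was not tested. The spread at 50 and 500 pg, with 2 arrays each, limits every trend that rests on them.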
